A study of Mus musculus with 21 samples.

Results

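The 4 libraries described here came from mouse embryonic fibroblasts taken through both steps of the C6FAE-C6F(L) protocol, a small-molecule treatment towards hepatocyte-like cells. They were all 4 of the libraries with that label, of 21 in the series, and were chosen by label alone. Within the group every gene was compared between the 4 libraries, with 3 libraries each of MEF, C6FAE and C6F(L) as the reference for the spread between libraries.

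All groups were primary embryonic cells labelled wild type, and no age, sex or strain is given in the labels. MEF were the untreated fibroblasts. The C6FAE mixture held 20 µM CHIR99021, which inhibits GSK3 and so activates Wnt signalling, and 10 µM of the TGF-beta receptor inhibitor 616452. It also held Forskolin, an activator of adenylyl cyclase, at 50 µM, AM580, which activates retinoic acid receptors, at 0.05 µM, and EPZ004777, an inhibitor of the histone methyltransferase DOT1L, at 5 µM. C6FAE cells received it with 50 ng/ml bFGF. C6F(L) cells were kept in a hepatocyte medium with 10% serum, 1 µM dexamethasone, 10 mM nicotinamide, 10 ng/ml FGF4, 20 ng/ml HGF and 20 ng/ml EGF, and received CHIR99021, 616452 and Forskolin. The doses were as above during the first 4 days, after which they were lowered to 3 µM, 2 µM and 2 µM in the same order. The C6FAE-C6F(L) cells were given the C6FAE mixture until day 4 and the C6F(L) treatment from then on. Whether libraries of 1 group are separate cultures is not stated in the labels, so p-values here measure the spread between these samples only, and no day of collection is given for the C6FAE-C6F(L) libraries.

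A fibroblast that is turned towards a liver fate has to silence its matrix genes, form epithelial junctions and switch on the secretory and metabolic programme of the hepatocyte. That programme is held by a small set of nuclear factors, among them HNF4A, the FOXA proteins and the GATA factors. The same factors, or close relatives, also serve the stomach and the gut, while p63 and paired keratins mark stratified squamous epithelium such as skin, oesophagus and forestomach.

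Total counts were 10.83 M to 11.41 M in the 4 libraries and 10.7 M to 12.32 M over all 13 libraries compared. Levels are CPM, counts scaled to libraries of equal size, with the sizes adjusted by the TMM method of edgeR, and 1 count stood for 0.0856 to 0.0957 CPM in the 4 libraries. Replicate 4 stood apart in its makeup. Ribosomal protein genes took 3.49% of its counts, against 7.28%, 7.44% and 8.90% in replicates 1, 2 and 3. The first principal component of the 4 libraries held 70.4% of the variance and separated replicate 4 from the other 3, and the second separated replicate 1. Results that rest on replicate 4 are therefore given with and without it. Where 4 values follow each other below, they are those of replicates 1, 2, 3 and 4.

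The labels call these cells fibroblast-hepatocyte, and the marker lists bear out only part of the name. Of 20 hepatocyte secreted proteins, 13 reached a mean of 10 CPM in the 4 libraries. Of 20 hepatocyte enzymes and transporters, 4 did so. Cyp7a1, the rate-limiting enzyme of bile acid synthesis, had 0 counts in all 4 libraries, and Cyp2e1, an enzyme of drug metabolism, had 1 count in replicate 1 and 0 in the rest. All 19 basal squamous genes and 16 of 20 gastric genes also reached 10 CPM. These were bulk libraries, in which fewer cells of a type and less RNA per cell cannot be told apart.

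The libraries of the 2-step protocol differed from each other far more than those of any reference group did. The median SD of log2 CPM between libraries was 0.258 in C6FAE-C6F(L) over the 9955 genes whose mean level reached 10 CPM. It was 0.0824 in MEF, 0.0832 in C6FAE and 0.0825 in C6F(L), where counting error alone gives a median SD of 0.0632 to 0.0658. Without replicate 4 the median SD of the remaining 3 libraries was 0.178 over the same 9955 genes.

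**Figure D1:**
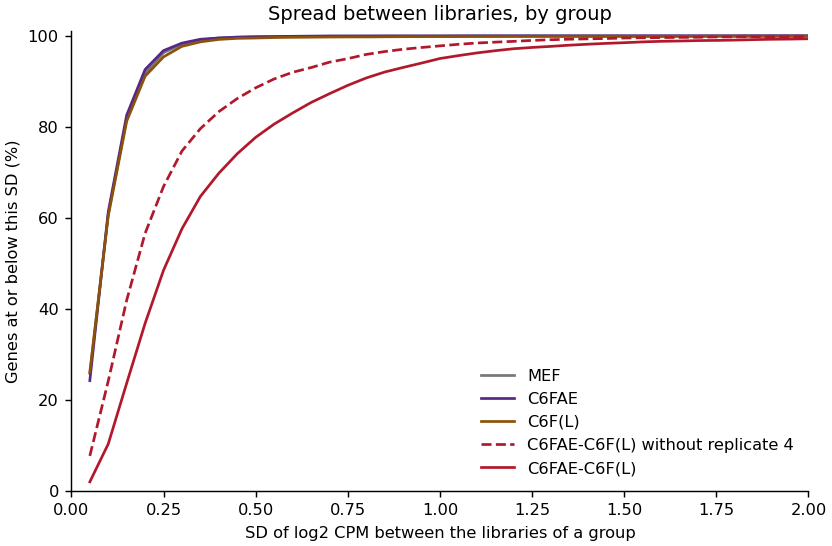
Cumulative share of genes (vertical axis, %) at or below a given SD of log2 CPM between the libraries of a group (horizontal axis), for genes whose mean level in that group reached 10 CPM. The curves of MEF, C6FAE and C6F(L), with median SDs of 0.0824, 0.0832 and 0.0825, lie on each other. C6FAE-C6F(L) lies to the right both with replicate 4 (0.258) and without it (dashed, 0.176). The dashed curve takes genes by their mean level without replicate 4.

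A total of 689 of 9955 genes (6.92%) had a range of at least 4-fold between the lowest and the highest of the 4 libraries. Fold ranges were computed on the log2(CPM + prior) scale with a prior count of 2, so they understate the range of low genes. The same count was 2 of 9948 genes (0.0201%) in MEF, 2 of 9909 (0.0202%) in C6FAE and 16 of 9649 (0.166%) in C6F(L). In replicates 1 to 3 alone it was 195 of 9955 (1.96%).

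The reference groups had 3 libraries each, and any 3 of the 4 libraries still gave far higher counts than they did. By pairs, replicates 2 and 3 were the closest, with 307 genes at least 2-fold apart, and replicates 3 and 4 the farthest, with 1907. Pairs of C6FAE libraries had 8 or 9 such genes. A range of 4-fold was also found among abundant genes, in 58 of 492 genes whose mean reached 300 CPM, so it was not confined to low counts.

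The range was also described by the level outside the group. Of 125 genes with a mean under 1 CPM in each of these groups, 81 (64.8%) had a 4-fold range. The share was 31.2% of 500 genes with a highest group mean of 1 to 10 CPM and 4.84% of 9330 genes with at least 10 CPM in one of these groups. Without replicate 4 the shares were 34.4%, 11.6% and 1.01%. Genes low elsewhere passed the minimum of 10 CPM only through these 4 libraries, so 1 high library could bring a gene in, and the shares are a description from which no difference between the classes is read. The same holds for the list members below that are near 0 in the other groups.

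For genes expressed in all 3 groups compared, the spread could be tested against MEF and C6FAE together. The test on absolute deviations from the group mean (limma, Benjamini-Hochberg adjusted p below 0.05) called more spread in 3514 of 8368 genes and less in 13. A simulated data set showed that this test makes too many calls, so a gene counts as called here only where a ratio of variances, with the reference variance moderated by limma, called it too. Both tests called more spread in 3277 genes (39.2%) and less in 2 (0.0239%). Without replicate 4 both called more spread in 1909 of 8256 genes and less in 15.

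With MEF alone or C6FAE alone as reference, the test on absolute deviations called 0 genes, with 2862 and 2801 genes at an unadjusted p under 0.05 and more spread, while the ratio of variances called more spread in 4556 and 4943. Around the group median in place of the mean it also called 0, with 2569 at an unadjusted p under 0.05. C6F(L), tested the same way against MEF and C6FAE, gave 2 genes called by both tests of 8609.

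With predicted and non-coding genes left out, the largest called difference in spread was that of Lama1, a basement membrane laminin chain of early endoderm. Its levels were 151 CPM, 4.40, 1.64 and 27.2 CPM, against 8.83 to 12.5 CPM in MEF and 109 to 145 CPM in C6FAE. Replicate 1 stood at the level of C6FAE and replicates 2 and 3 fell below MEF. The mean absolute deviation was 2.38 log2 units larger than in the reference (SE 0.40, limma adjusted p = 0.01007, adjusted p of the variance ratio 2.2e-13).

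Spp1 (osteopontin, a secreted matrix protein) was next at 15.6, 58.8, 8.73 and 586.3 CPM, and Dhrs3, a retinaldehyde reductase, stood at 92.9, 127, 136 and 7.54 CPM. Replicate 4 held the extreme value of both, high for Spp1 and low for Dhrs3. The remaining leaders, Hmcn1 and Olfml3, both genes of the extracellular matrix, were highest in replicate 4 as well, at 75.4 and 39.4 CPM. Mrpl36, a mitochondrial ribosomal protein, and Prmt3, an arginine methyltransferase, were the 2 genes called with less spread. Mrpl36 stood at 26.7 to 27.7 CPM in the 4 libraries at 23.5 to 29.1 CPM in MEF and at 18.9 to 23.5 CPM in C6FAE.

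The direction of the differences fell into a few recurring patterns. Of the 689 genes with a 4-fold range, 223 were highest in replicate 4 and lowest in replicate 3. A further 151 were highest in replicate 2 and lowest in replicate 4, and 100 highest in replicate 3 and lowest in replicate 4. Replicate 4 was thus the highest or the lowest library for 577 of them, and 112 genes had their extremes among the other 3 libraries. Over all 9955 genes, replicate 4 was the highest library for 38.3% and the lowest for 34.4%.

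**Figure D2:**
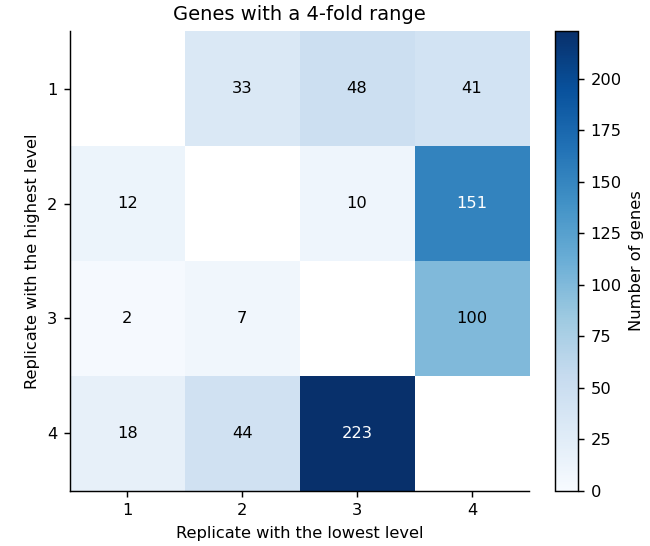
Number of genes (colour and printed figure) among the 689 with a 4-fold range between the C6FAE-C6F(L) libraries, by the replicate with the highest level (vertical axis) and the replicate with the lowest level (horizontal axis). The cell for highest in replicate 4 and lowest in replicate 3 holds 223 genes, and the cell for highest in replicate 2 and lowest in replicate 4 holds 151.

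Most secreted proteins of the hepatocyte were highest in replicate 1 and lowest in replicate 2. Of the 13 secreted proteins at 10 CPM or more, 10 had a 4-fold range (6.92% of all genes), and 8 had it without replicate 4 (1.96%). The median range of the 13 was 7.34-fold, beside 1.49-fold over all 9955 genes. Replicate 1 was the highest library for 10 of the 13 (17.7% of all genes) and replicate 2 the lowest for 11 (21.3% of all genes). The count of 10 fell to 2 without replicate 2 and to 6 without replicate 1.

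Alb, Afp and Hpx were highest in replicate 4 instead, and Apoa1 and Apob were not lowest in replicate 2. Alb (ENSMUSG00000029368, GRCm38 chromosome 5, 90460897 to 90476602), the main plasma protein made by hepatocytes, stood at 453, 120.3, 227 and 620.4 CPM, a range of 5.15-fold. It was highest in replicate 4 and lowest in replicate 2. Apoa1, the main protein of high-density lipoprotein, stood at 769, 255, 215 and 67.0 CPM, a range of 11.4-fold. So the library with the highest Alb had the lowest Apoa1. Afp, the fetal counterpart of albumin and its neighbour in the genome, varied less than Alb, at 48.2, 27.4, 44.3 and 54.2 CPM, a range of 1.97-fold. Likeness was measured by the root mean square difference of log2 deviations over the 4 libraries. The genes most like Alb were Tbx15, Vwa2, Deptor, Decr1 and Maf, at 0.08 to 0.26. Mean levels in MEF were 116 CPM for Tbx15, 62.0 CPM for Deptor, 47.4 CPM for Decr1 and 158 CPM for Maf, but 0.0277 CPM for Vwa2.

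The 3 fibrinogen genes, which encode the subunits of a clotting protein and lie within 42.1 kb on chromosome 3, followed each other closely. Fga stood at 88.8, 7.75, 34.4 and 37.3 CPM. Fgb stood at 144, 11.7, 60.9 and 68.2 CPM. Fgg stood at 52.4, 6.12, 24.3 and 14.6 CPM. All 3 were highest in replicate 1 and lowest in replicate 2, with ranges of 11.2-fold, 12.2-fold and 8.34-fold. Ahsg (fetuin A), Ttr (transthyretin), Trf (transferrin) and Ambp, further plasma proteins, had the same highest and lowest library, with ranges of 5.26-fold, 7.34-fold, 5.38-fold and 9.69-fold. In MEF and C6FAE no library exceeded 0.413 CPM of any fibrinogen gene.

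Of 7 transcription factors of the hepatocyte at 10 CPM or more, 1 had a 4-fold range, beside 6.92% of all genes. Hnf4a (ENSMUSG00000017950, chromosome 2, 163506808 to 163572910), a nuclear receptor at the centre of hepatocyte identity, stood at 68.5, 26.1, 27.9 and 53.9 CPM. Foxa2, a pioneer factor of endoderm, had the same order at 49.5, 15.4, 17.0 and 34.3 CPM, and Gata4 was likewise higher in replicates 1 and 4 than in 2 and 3. Foxa1, the close relative of Foxa2, was the gene with the 4-fold range and differed from it, at 26.5, 13.3, 79.6 and 7.62 CPM. It was highest in replicate 3, the library in which Foxa2 was near its lowest. Cebpa, a factor of metabolic genes, stood at 43.2, 81.2, 67.7 and 46.3 CPM and was lowest in replicate 1.

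Enzymes followed no single order. Cps1, the first enzyme of the urea cycle, stood at 64.5, 7.65, 17.996 and 10.4 CPM and was highest in replicate 1. Arg1, the last enzyme of that cycle, which other cell types also make, stood at 500.6, 599, 578 and 41.4 CPM. Its 3 high libraries lay within 1.20-fold of each other, and the range of 14.4-fold rested on replicate 4.

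Genes of early endoderm were also mostly highest in replicate 1. Sox17, a transcription factor of early endoderm, stood at 57.4, 23.9, 14.7 and 27.8 CPM, against 106 to 119 CPM in C6FAE. Dab2, an adaptor protein of endoderm, stood at 49.7, 11.7, 9.18 and 26.5 CPM, and Lama1, given above, was also highest in replicate 1. Of 8 extraembryonic endoderm genes at 10 CPM or more, 7 were highest in replicate 1 (17.7% of all genes), 4 lowest in replicate 3 and 3 lowest in replicate 2, among them Foxa2 and Ttr, which other lists hold too.

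**Figure D3:**
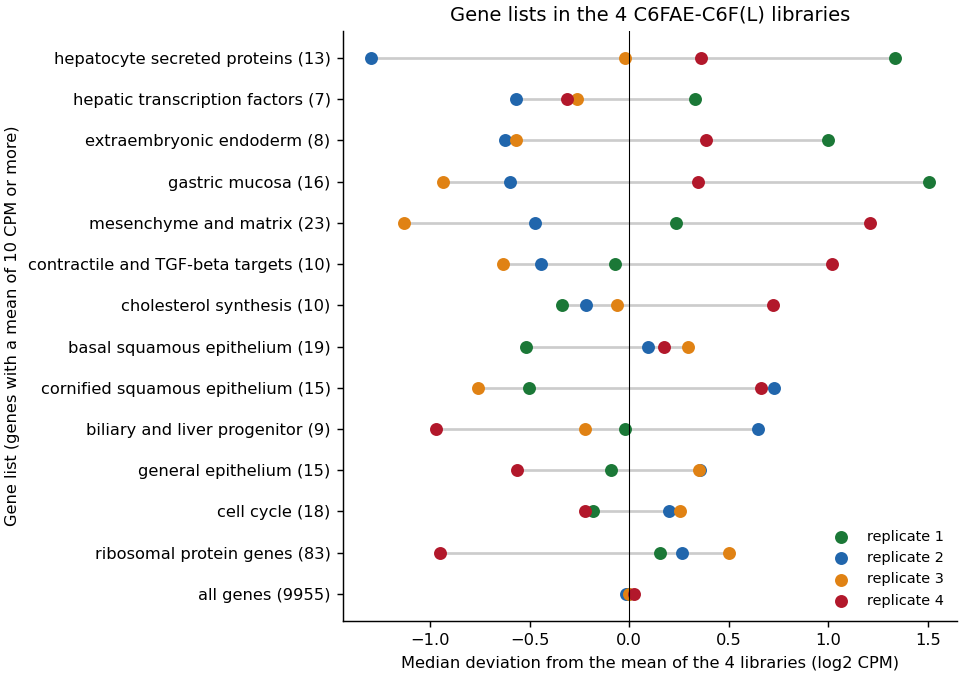
Median deviation of each gene list from the mean of the 4 C6FAE-C6F(L) libraries (horizontal axis, log2 CPM), 1 point per replicate, with the number of genes at 10 CPM or more in brackets. Hepatocyte secreted proteins run from -1.30 in replicate 2 to 1.33 in replicate 1, mesenchyme genes from -1.13 in replicate 3 to 1.21 in replicate 4, and all genes together stay between -0.02 and 0.02.

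Gastric genes had wide ranges both with and without replicate 4. Of 16 gastric genes at 10 CPM or more, 15 had a 4-fold range (6.92% of all genes), and 12 had it without replicate 4 (1.96%). The median range was 9.35-fold, and 7.29-fold without replicate 4. Replicate 1 was the highest library for 10 of the 16 (17.7% of all genes), and replicate 3 the lowest for 8 (24.1% of all genes).

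Gkn1 (ENSMUSG00000030050, chromosome 6, 87345650 to 87350942), a gastrokine secreted by the surface mucous cells of the stomach, stood at 343, 129.8, 13.2 and 124 CPM, against 13.4 to 22.5 CPM in C6FAE. Its neighbour Gkn2, a second gastrokine, stood at 256, 92.6, 13.9 and 206 CPM. In both, replicate 1 was highest, and replicate 3 was the one library within or close to the range of C6FAE. By the root mean square difference of log2 deviations over the 4 libraries, Gkn2 was the gene most like Gkn1 (0.49), followed by Wfdc1 (0.52), Mucl3 (0.61), Muc1 (0.83) and C4bp (0.89). Muc1, a membrane mucin of glandular epithelium, stood at 90.7, 32.9, 10.5 and 20.6 CPM.

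Genes of deeper stomach glands had other orders. Pgc (ENSMUSG00000023987, chromosome 17, 47726842 to 47734482), which encodes the protease precursor pepsinogen C, stood at 830.1, 37.9, 759 and 9.42 CPM, a range of 86.5-fold and of 21.8-fold without replicate 4. Atp4a, the catalytic subunit of the gastric proton pump of parietal cells, stood at 31.0, 1.63, 29.8 and 5.39 CPM. Muc6, a mucin of the gland base, stood at 84.8, 7.75, 33.8 and 0.0856 CPM, the last being 1 count. All 3 were high in replicates 1 and 3 and low in 2 and 4. Tff2, a trefoil peptide of gastric mucous cells, stood at 154, 7.65, 16.7 and 33.4 CPM and was high in replicate 1 alone. Anxa10, an annexin of gastric epithelium, stood at 50.5, 5.65, 3.27 and 63.1 CPM and was high in replicates 1 and 4.

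Gut genes were fewer. Of 14 intestinal genes, 5 reached 10 CPM, and Tff3, a trefoil peptide of goblet cells, was the one with a 4-fold range, at 22.1, 1.72, 8.27 and 71.1 CPM. Vil1 (villin, of the brush border) stood at 59.3, 31.0, 30.5 and 24.9 CPM, a range of 2.37-fold.

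Squamous genes are given as a basal list and, further below, a list of the differentiating layers. Of 19 basal squamous genes, all above 10 CPM, 5 had a 4-fold range (6.92% of all genes), and 0 had it without replicate 4 (1.96%). A 2-fold range was found in 13 of them (25.9% of all genes). The median range was 2.40-fold, and 1.93-fold without replicate 4, beside 1.49-fold and 1.27-fold over all genes. Krt5 (ENSMUSG00000061527, chromosome 15, 101707070 to 101712898), the type II keratin of basal cells, stood at 4612, 7843, 9185 and 5153 CPM, a range of 1.99-fold. Trp63, the gene of the squamous master regulator p63, stood at 96.9, 149, 190.5 and 133 CPM and had the same highest and lowest library. Replicate 1, the highest library for the hepatocyte list, was the lowest for 10 of the 19 basal squamous genes (20.2% of all genes). The genes most like Krt5 over the 4 libraries were Tcim, Rabggta, Epha2, Nrarp and Ifit1, with root mean square differences of 0.04 to 0.05.

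Neighbouring type I keratin genes went opposite ways in replicate 4. These genes lie within 144 kb on chromosome 11 and encode the acidic partners of keratin filaments. Krt14, the usual partner of Krt5, stood at 1303, 1298, 2027 and 6822 CPM. Krt15, a keratin of quiescent basal cells, stood at 1466, 1519, 2081 and 210.5 CPM. Replicate 4 was thus the highest library for the first and the lowest for the second, while the other 3 libraries lay within 1.56-fold and 1.42-fold.

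Krt16 (ENSMUSG00000053797, 100246091 to 100248902), a keratin of wounded and hyperproliferative epidermis, stood at 17.6, 9.28, 17.4 and 1250.0 CPM, 132-fold from lowest to highest and 1.88-fold without replicate 4. Krt13, a keratin of oesophagus and other mucosal squamous layers, stood at 5312, 10517, 9787 and 1148 CPM. Krt17 was highest in replicate 4 at 638 CPM. Krt19, a keratin of simple and ductal epithelium in the same run of genes, varied by 1.49-fold. The order along the chromosome, from Krt13 through Krt15, Krt19, Krt14 and Krt16 to Krt17, placed the 2 genes that were low in replicate 4 at one end and the 3 that were high at the other. These 6 were looked at together after their values had been seen.

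Outside the keratins, Ly6d, a surface protein of stratified epithelium, stood at 406, 835, 1182 and 190.3 CPM, highest in replicate 3 and lowest in replicate 4. The hemidesmosome genes Itgb4 and Col17a1 had ranges of 2.72-fold and 2.15-fold.

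Genes of the differentiating squamous layers included some, such as Klk7 and Sprr1b, that passed 10 CPM only through replicate 4. No difference from the basal genes is therefore read from their ranges. Of 15 cornified-layer genes at 10 CPM or more, 12 had a 4-fold range (6.92% of all genes), and 5 had it without replicate 4 (1.96%). The median range was 9.16-fold. Replicate 2 was the highest library for 7 (21.0% of all genes) and replicate 4 for another 7 (38.3%).

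Krt4, the partner of Krt13 in the oesophagus, stood at 458, 2728, 571 and 49.1 CPM. Calml3, a calmodulin-like protein of stratified epithelium, stood at 75.4, 242, 143 and 3.68 CPM, and Tgm1, the transglutaminase that crosslinks the cornified envelope, at 308, 669, 656 and 86.4 CPM. All 3 were highest in replicate 2 and lowest in replicate 4, as Krt13 was. Lgals7, a galectin of stratified epithelium, stood at 3.10, 47.8, 6.09 and 12.7 CPM, with replicate 2 set apart.

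Replicate 4 was highest for Sprr1b, Sprr3, Sbsn, Krtdap, Lor, Cnfn and Klk7. Sprr3, an envelope precursor of oesophagus, stood at 96.6, 280.5, 77.3 and 412 CPM. Sprr1b, a precursor of the cornified envelope, stood at 4.69, 2.20, 0.545 and 270.2 CPM, with 6 counts in replicate 3. Sbsn and Krtdap, secreted proteins of differentiating keratinocytes, stood at 42.2, 61.0, 40.7 and 388 CPM and at 8.58, 36.4, 7.998 and 90.7 CPM. Sprr1a, the close relative of Sprr1b, varied by 1.57-fold and Ivl (involucrin), also of the envelope, by 2.20-fold. Krt1, the keratin of the spinous layer of skin, stayed under 10 CPM in every library, at 2.21, 8.42, 2.73 and 0.342 CPM.

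Keratinocyte genes also made up much of the small set that varied within C6F(L), the second step given alone. Of its 16 genes with a 4-fold range, Krt5, Krt6a, Krt6b, Krt14, Krt16, Krt1 and Krt10 were keratins of stratified epithelium. Krt16 stood at 61.0, 1.58 and 25.9 CPM in C6F(L) replicates 1, 2 and 3, and Krt14 at 52.7, 2.60 and 23.2 CPM. All of these were highest in C6F(L) replicate 1 and lowest in replicate 2. Of the 16 genes, 4 also had a 4-fold range at 10 CPM or more in C6FAE-C6F(L), beside 6.92% of all genes at that level. They were Krt16, Krt14, Ttr and Rps27rt, the last of which shares reads with near-identical copies.

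**Figure D4:**
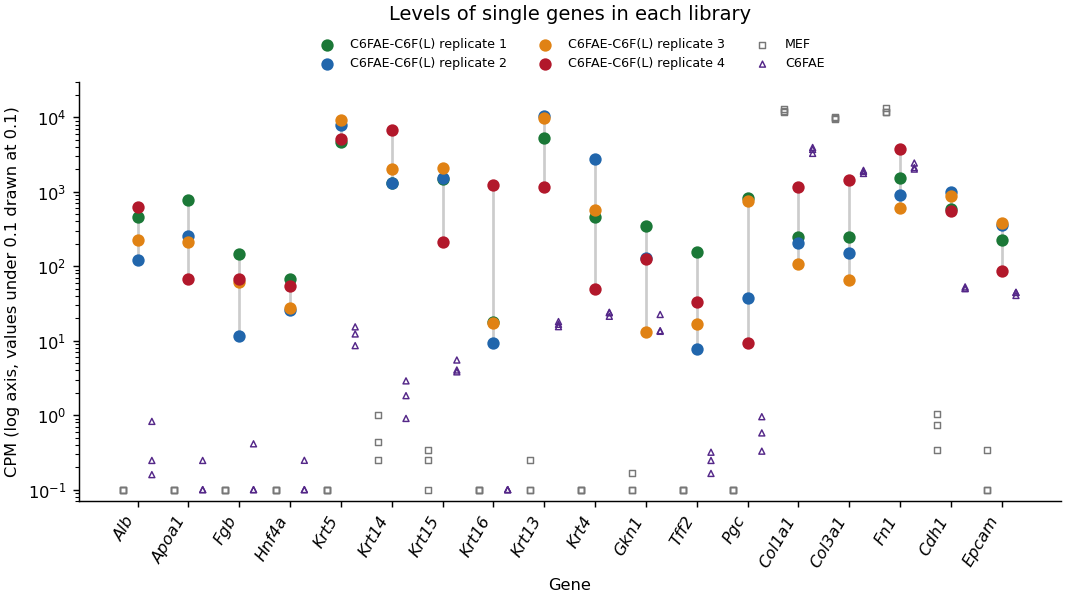
CPM (log axis) of 18 genes in each C6FAE-C6F(L) library (filled circles, joined from lowest to highest) and in the 3 MEF (grey squares) and 3 C6FAE libraries (purple triangles), with values under 0.1 drawn at 0.1. Krt5 and Cdh1 lie close together in the 4 libraries, Krt16 and Krt14 are highest and Krt15, Krt13 and Krt4 lowest in replicate 4, and Fgb and Tff2 are highest in replicate 1.

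Promoter sequences were compared for genes that moved together or apart, because the shared letters can be read directly. The 300 bases shown run from 250 before to 50 after the start site in the RefSeq table for GRCm38.p6, 5′ to 3′ on the gene's strand. Capitals mark matches on either strand to 4 motifs, of which the first is the core promoter element TATAAA. The second, TGANTCA, is the site of the AP-1 factors. GGAATG is the motif of the TEAD factors, and AGATAAG that of the erythroid and endodermal zinc-finger factors related to Gata4. The matches did not overlap in the sequences shown. Krt13 and Sprr1b are cornified-layer genes that were lowest and highest in replicate 4, and Krtdap followed Sprr1b. Fga and Fgb, and Gkn1 and Gkn2, are pairs that moved together.
Krt13, chr11:100121517-100121816, minus strand: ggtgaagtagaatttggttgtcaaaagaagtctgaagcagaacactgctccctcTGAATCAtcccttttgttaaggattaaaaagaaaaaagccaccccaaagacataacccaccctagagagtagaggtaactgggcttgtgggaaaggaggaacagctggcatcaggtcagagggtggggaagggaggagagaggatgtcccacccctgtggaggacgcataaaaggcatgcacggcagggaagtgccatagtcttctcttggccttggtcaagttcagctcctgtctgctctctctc
Sprr1b, chr3:92438730-92439029, minus strand: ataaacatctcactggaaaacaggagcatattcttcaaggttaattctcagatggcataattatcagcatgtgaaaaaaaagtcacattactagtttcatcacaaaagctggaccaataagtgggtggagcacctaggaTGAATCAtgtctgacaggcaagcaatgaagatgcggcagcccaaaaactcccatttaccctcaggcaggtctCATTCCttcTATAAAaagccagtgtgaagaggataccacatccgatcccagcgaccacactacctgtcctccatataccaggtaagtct
Krtdap, chr7:30787655-30787954, plus strand: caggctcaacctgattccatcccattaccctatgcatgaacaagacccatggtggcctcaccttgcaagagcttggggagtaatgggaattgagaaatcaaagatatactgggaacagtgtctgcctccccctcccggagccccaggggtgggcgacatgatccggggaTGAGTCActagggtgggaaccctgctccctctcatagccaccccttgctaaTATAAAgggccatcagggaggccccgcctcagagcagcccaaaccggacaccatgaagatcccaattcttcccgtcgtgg
Fga, chr3:83025903-83026202, plus strand: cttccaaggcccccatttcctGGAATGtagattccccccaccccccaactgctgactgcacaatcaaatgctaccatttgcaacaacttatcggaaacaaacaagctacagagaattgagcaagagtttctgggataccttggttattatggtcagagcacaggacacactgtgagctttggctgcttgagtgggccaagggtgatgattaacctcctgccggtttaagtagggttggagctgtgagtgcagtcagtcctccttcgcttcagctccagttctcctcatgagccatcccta
Fgb, chr3:83049814-83050113, minus strand: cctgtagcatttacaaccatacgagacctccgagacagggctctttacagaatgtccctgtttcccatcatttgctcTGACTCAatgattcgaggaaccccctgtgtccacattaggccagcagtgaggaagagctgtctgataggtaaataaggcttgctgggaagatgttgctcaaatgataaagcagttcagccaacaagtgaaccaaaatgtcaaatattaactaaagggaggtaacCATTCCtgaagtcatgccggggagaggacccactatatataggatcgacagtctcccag
Gkn1, chr6:87350866-87351165, minus strand: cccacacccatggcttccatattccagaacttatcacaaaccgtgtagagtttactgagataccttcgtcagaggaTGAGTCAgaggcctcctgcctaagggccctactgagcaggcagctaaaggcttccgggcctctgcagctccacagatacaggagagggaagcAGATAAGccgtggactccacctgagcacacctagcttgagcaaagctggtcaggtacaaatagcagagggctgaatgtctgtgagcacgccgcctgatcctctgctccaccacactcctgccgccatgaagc
Gkn2, chr6:87373115-87373414, plus strand: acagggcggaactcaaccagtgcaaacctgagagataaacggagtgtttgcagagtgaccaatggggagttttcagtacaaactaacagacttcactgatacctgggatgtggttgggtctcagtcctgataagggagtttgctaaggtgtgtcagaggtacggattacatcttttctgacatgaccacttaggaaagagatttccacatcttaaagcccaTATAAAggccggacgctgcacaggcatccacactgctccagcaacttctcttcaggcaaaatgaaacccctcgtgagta

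Sprr1b and Krtdap each held a TATA box at -30 to -25 and an AP-1 match, at -111 to -105 and -81 to -75. Krt13 held an AP-1 match at -196 to -190 and none of the exact TATAAA. AP-1 matches thus stood in promoters of cornified-layer genes that were highest in replicate 4 and in 1 that was lowest there. Of the 12 cornified-layer genes with a 4-fold range, 10 had a promoter in the table and 5 of these held TGANTCA, beside 7.81% of all 32851 promoters. The share was 1 of 8 among hepatocyte secreted proteins, 2 of 12 among gastric genes and 1 of 10 among mesenchyme genes. TATAAA stood in 4 of 10 cornified-layer, 4 of 12 gastric, 3 of 10 mesenchyme and 0 of 8 hepatocyte promoters, beside 13.6% of all. The HNF1 motif and the letters CAAAGTCCA (HNF4) stood in 0 of the promoters of these lists, beside 0.0609% and 0.475% of all. AGATAAG stood in 1 of 12 gastric promoters (3.04% of all) and the CArG box in 1 of 8 hepatocyte promoters (1.63% of all). GGAATG stood in 2 of 10 cornified-layer, 2 of 8 hepatocyte, 1 of 12 gastric and 2 of 10 mesenchyme promoters, beside 14.7% of all. The paired gastrokine promoters shared no match. Only exact matches were counted, and those of HNF1 and HNF4 stood in 20 and 156 of all 32851 promoters. Motifs this rare would be missing from most lists of this size. The 0 for HNF1 and HNF4 therefore cannot show that sites of these factors are absent, and looser forms of the motifs were not tested.

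Mesenchyme and matrix genes varied along 1 order in nearly every member. All 23 members at 10 CPM or more were highest in replicate 4 (38.3% of all genes), and 22 were lowest in replicate 3 (24.1%). Of the 23, 15 had a 4-fold range (6.92% of all genes), and 1, Pdgfra, had it without replicate 4 (1.96%). Both tests called more spread than in MEF and C6FAE for all 23, beside 39.2% of all genes tested.

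Col1a1 (ENSMUSG00000001506, chromosome 11, 94936224 to 94953042), a chain of type I collagen, stood at 244, 206, 107 and 1154 CPM, against 11955 to 12919 CPM in MEF. Col3a1, the fibrillar collagen of soft tissue, stood at 251, 152, 66.2 and 1448 CPM, and Fn1 (fibronectin) at 1530.4, 917, 601 and 3732 CPM. In each, replicate 4 lay far above the rest and replicate 3 lowest, and all 4 libraries stayed below every MEF library. The median member stood at 19.7% of its MEF mean in replicate 4 and at 12.5%, 7.50% and 4.91% in replicates 1, 2 and 3. Postn (periostin), a matrix protein of fibroblasts, stood at 11.7, 12.1, 4.64 and 45.7 CPM. Vim (vimentin), the intermediate filament of mesenchyme, stood at 398, 239.6, 151 and 917 CPM. Fbn1, Col5a2, Frzb, Dpt and Clca3a1 were the genes most like Col1a1, with root mean square differences of 0.12 to 0.17.

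Snai2, a repressor of E-cadherin that basal epithelial cells also make, was the member that was not lowest in replicate 3, at 31.7, 25.5, 36.3 and 68.9 CPM. Contractile and TGF-beta target genes shared the high library: 10 of 10 were highest in replicate 4 (38.3% of all genes) and 7 lowest in replicate 3 (24.1%). Acta2 (smooth muscle actin) stood at 115, 82.6, 77.3 and 287 CPM, and Thbs1 (thrombospondin), a TGF-beta target, at 241, 275, 175 and 1031 CPM. The part of fibroblasts that remained in the culture in these differences was not tested.

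Epithelial junction genes went the other way in replicate 4 but by less. Of 15 general epithelial genes, 12 were lowest in replicate 4 (34.4% of all genes). A 4-fold range was found in 4 (6.92% of all genes), and in 0 without replicate 4 (1.96%). Cdh1 (E-cadherin) stood at 594, 1009, 870.0 and 551 CPM and Epcam, an epithelial adhesion molecule, at 228, 355, 379 and 86.3 CPM. Elf3, an epithelial transcription factor, stood at 361, 576, 578 and 54.2 CPM, with replicate 4 set apart. Krt8, a keratin of simple epithelium, was the exception, highest in replicate 4 and lowest in replicate 3 at 815, 442, 242 and 1038.5 CPM, while its partner Krt18 varied by 1.31-fold.

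No cell cycle gene of 18, no stress gene of 10 and no cholesterol synthesis gene of 10 had a 4-fold range, beside 6.92% of all genes, a share at which lists of this size would hold few or none. The median range was 1.49-fold, 1.36-fold and 2.26-fold, beside 1.49-fold over all genes. Both tests called more spread in 10 of 18 cell cycle, 2 of 8 stress and 8 of 10 cholesterol genes, beside 39.2% of all genes tested. Of the cholesterol genes, 8 of 10 were highest in replicate 4 (38.3% of all genes), such as Cyp51 at 115, 148, 138 and 366 CPM and Idi1 at 44.3, 42.4, 49.6 and 130.4 CPM. Of 18 cell cycle genes, 11 were highest in replicate 3 (23.0% of all genes). Ribosomal protein genes were lowest in replicate 4 for 72 of 83 (34.4% of all genes) and highest in replicate 3 for 68 of 83 (23.0%).

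Of 11 macrophage markers, 6 were at 0 counts in all 4 libraries, the defining genes C1qa, C1qb, C1qc, Adgre1, Fcrls and Tyrobp. The summed level of the 11 was 115 to 348 CPM, against 4734 to 5918 CPM in MEF, and most of it came from Cd14 and Cd68, which other cells also make. No neural or erythroid marker reached 10 CPM.

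Each library had genes that set it apart from the nearest of the other 3. In replicate 1 these were led by Aqp8, a water channel of liver and colon, at 49.7, 2.01, 1.18 and 3.00 CPM, Lyz1, a lysozyme of Paneth cells, at 71.7, 8.32, 9.27 and 1.28 CPM, Lama1, and Cyp2b10, a hepatic cytochrome P450, at 28.5, 5.84, 3.18 and 2.65 CPM. Elf5, a transcription factor of glandular epithelium, led in replicate 2 at 4.78, 67.1, 7.998 and 4.11 CPM. Replicate 3 was set apart more by low than by high genes, led on the low side by Kprp, with 0 counts there, and by both gastrokines. Kprp stood at 2.83, 5.17, 0 and 32.1 CPM, so it reached a mean of 10 CPM only through replicate 4. In replicate 4 Krt16, Endou, Sprr1b, Prl2c3 and Cpa4 led the high side. Prl2c3, a placental prolactin relative, stood at 28.4, 17.5, 34.5 and 874 CPM.

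On the low side of replicate 4 stood Clca3b, Ocm, Muc6, Pigr (the receptor that carries antibodies across epithelia) and Ces2a (a carboxylesterase), each with at most 8 counts there and at least 81 in every other library. In all, 331 genes were at least 2-fold above and 452 at least 2-fold below every other library in replicate 4, against 93 and 15 in replicate 1, 55 and 32 in replicate 2, and 19 and 73 in replicate 3. Rps2 in replicate 2 and Rpl35a and Sumo2 in replicate 3 also led their libraries, but such genes share reads with near-identical copies, and their values are uncertain.

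Genes with a 4-fold range tended to share their order with a neighbour. Of 45 pairs of consecutive such genes with starts within 50 kb, 27 had the same highest library, beside 29.1% of all pairs of the 689 genes. In 21 pairs the lowest library was the same too, beside 18.99%. The strand setting of the counting is not known, so reads of overlapping genes cannot be told apart in these pairs.

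Genes tied to the sex and the parental alleles of the cells also differed between libraries. These lists were drawn up after their values had been seen. Xist (ENSMUSG00000086503, chromosome X, 103460366 to 103483254), the RNA that silences an X chromosome in female cells, stood at 754, 187, 338 and 608 CPM, against 374 to 477 CPM in MEF and 456 to 554 CPM in C6FAE. The Y-linked genes had the opposite order. Ddx3y, an RNA helicase, stood at 16.4, 82.9, 60.3 and 19.9 CPM, and Eif2s3y, a translation factor, at 13.5, 93.8, 66.3 and 18.6 CPM. Kdm5d, a histone demethylase, stood at 10.8, 62.6, 47.5 and 10.7 CPM.

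Replicates 1 and 4 were thus high in Xist and low in Y-linked RNA, and replicates 2 and 3 the reverse. All 13 libraries held both kinds of RNA. In MEF, Kdm5d ranged from 10.3 to 10.9 CPM and in C6FAE from 13.3 to 14.4 CPM. Both tests called more spread for Xist (limma adjusted p = 0.018684, variance ratio adjusted p = 1.8e-09) and for the 3 Y-linked genes tested, with limma adjusted p of 0.01007 to 0.010573. The same split, replicates 1 and 4 against 2 and 3, held for Hnf4a, Foxa2 and Gata4. Replicate and share of female cells cannot be told apart in these 4 libraries. Over the whole X chromosome 20 of 295 genes had a 4-fold range (6.78%), close to the 6.89% of 9655 other genes outside the sex chromosomes.

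Imprinted genes, which are expressed from 1 parental allele, were often highest in replicate 1 and lowest in replicate 3. Of 17 at 10 CPM or more, 9 were highest in replicate 1 (17.7% of all genes) and 13 lowest in replicate 3 (24.1%). The 6 that were highest in replicate 4 stood near the 38.3% of all genes. H19, a growth-restraining non-coding RNA, stood at 7803, 2256, 1921 and 1706 CPM. Igf2, the fetal growth factor of the same locus, stood at 439.5, 104, 69.8 and 98.2 CPM, and Dlk1, a Notch-related protein of progenitor cells, at 173, 51.2, 38.5 and 38.4 CPM. All 3 were high in replicate 1 alone, and all 3 were called by both tests, beside 39.2% of all genes tested. In C6F(L), H19 stood at 7911 to 8485 CPM, Igf2 at 258 to 287 CPM and Dlk1 at 1430 to 1569 CPM. In C6FAE they stood at 14663 to 15431, 623 to 674 and 130.4 to 159 CPM. Replicate 1 was thus below C6FAE for H19 and Igf2 and above it for Dlk1, which was far below C6F(L).

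**Figure D5:**
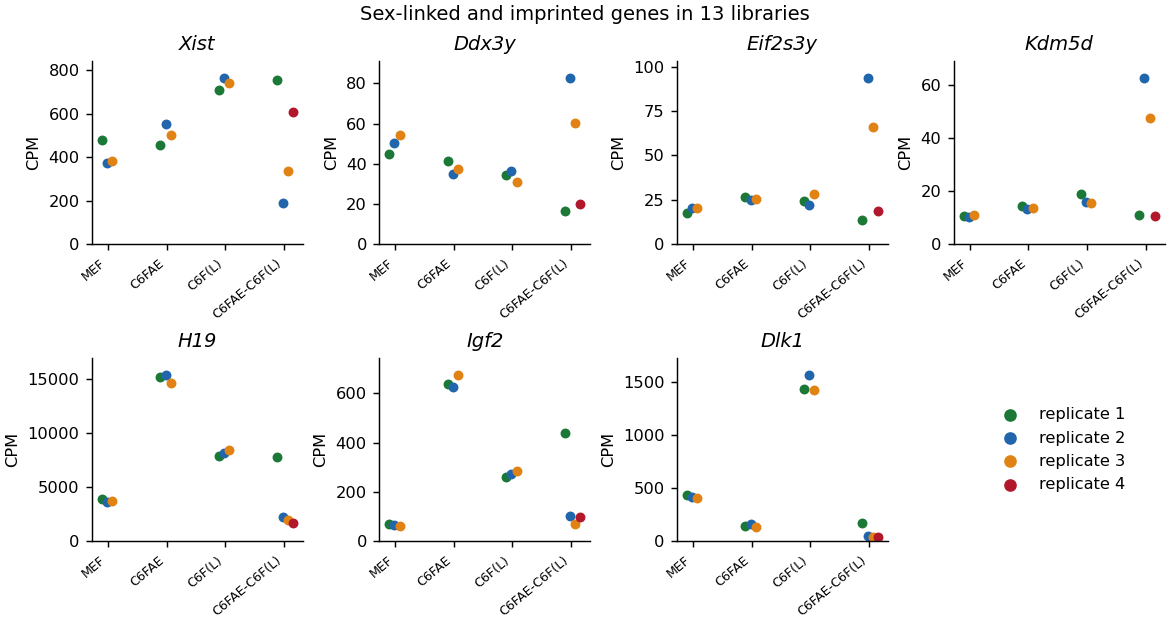
CPM (vertical axes, linear from 0) of Xist, 3 Y-linked genes and 3 imprinted genes in the 13 libraries, grouped by treatment. Colours give the replicate number, and whether it links samples of different groups is not stated in the labels. In C6FAE-C6F(L), replicates 1 and 4 are highest for Xist (754 and 608 CPM) and lowest for the Y-linked genes, and replicate 1 stands alone for H19, Igf2 and Dlk1.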

How the data were processed

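RNA-seq counts per gene were deposited by the authors for 13 libraries. Per the labels' protocols the libraries were made from poly(A) RNA, and per the submitters' processing notes HISAT2 and the build GRCm38 (mm10) were used. For the gene counter, its strand setting and the annotation, nothing is given in the sources used here. FPKM values were also deposited by the authors and served as a check of the columns: 10 of 13 FPKM columns matched their own count column best, among them all 4 of C6FAE-C6F(L), and 3 MEF columns matched another MEF replicate.

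Counts were scaled by TMM (edgeR 4.0.16, R 4.3.3) to CPM, with a prior count of 2 on the log2 scale. Genes whose mean reached 10 CPM in C6FAE-C6F(L) were described by the ratio of the highest to the lowest library. Where 1 to 3 counts or 0 stood in a library, no fold is given. Spread was tested on absolute deviations from the group mean with limma 3.58.1 against MEF and C6FAE, over genes at 10 CPM or more in all 3 groups, with Benjamini-Hochberg adjustment at 0.05. On simulated data that test called too many unchanged genes, so a variance ratio moderated by limma was added after the data had been seen, and a gene is called where both call it. DESeq2 1.42.0 size factors, other prior counts, filters, thresholds and each replicate left out were alternatives.

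The gene lists and the choice of libraries were made with earlier results of these data known. Named were list members at 10 CPM or more, starting with fixed marker genes, and some of the 5 genes that set each library apart in each direction. The called genes with the largest differences in spread and the genes most like Alb, Krt5, Gkn1 and Col1a1 were named too. These rankings left out predicted genes and, apart from H19, genes that are not protein-coding. Further list members and the genes of the sex-linked, imprinted and clustered lists were chosen after their values were seen. Intervals from counting cover counting error only.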

Additional observations from a re-analysis of the deposited data

Results flagged for a closer look

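Among 135 genes named in the text and 4 measures of the libraries, 11 genes had 1 of the 4 C6FAE-C6F(L) libraries so far from the rest that the gap to its nearest neighbour exceeded Dixon's critical share of the whole range on the log2 CPM scale. Chance gives about 1 in 20 groups, and several of these genes had been picked for just such a gap. Replicate 4 was the distant library in 10 of the 11. It was low for Arg1 (41.4 CPM, the others 500.6 to 599), Krt15 (210.5 CPM, the others 1466 to 2081) and Dhrs3 (7.54 CPM, the others 92.9 to 136). It was also low for Ocm (0.514 CPM), Pigr (0.685 CPM), Ces2a (0.599 CPM) and Clca3b (0.171 CPM, or 2 counts). It was high for Krt16 (1250.0 CPM, the others 9.28 to 17.6), Idi1 (130.4 CPM, the others 42.4 to 49.6) and Endou (44.0 CPM, the others 0.182 to 0.478). The remaining gene was Cyp2e1, where a single count in replicate 1 (0.0885 CPM) stood against 0 in the others.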

How the results depend on the processing

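Size factors of DESeq2, library size alone and other prior counts kept the numbers of genes with a 4-fold range, of the 5 lists led with and of spread calls within 1.5 times the reported ones. The filter and the threshold moved them. Genes with a 4-fold range numbered 1853 at a minimum of 1 CPM and 248 at 50 CPM, and 2577 and 215 genes had a 2-fold and an 8-fold range. With 50 CPM, 4 hepatocyte secreted and 6 gastric genes remained at 4-fold. At 8-fold, 6 hepatocyte secreted, 3 basal squamous, 9 gastric and 5 mesenchyme genes counted, and at 2-fold 13 basal squamous and 23 mesenchyme genes. Leaving out 1 library gave 195 to 592 genes in all, with 2 to 10 hepatocyte secreted, 0 to 5 basal squamous, 5 to 12 cornified-layer, 12 to 14 gastric and 1 to 15 mesenchyme genes. The median SD then ran from 0.178 to 0.267 in C6FAE-C6F(L), from 0.0606 to 0.0703 in MEF and from 0.0660 to 0.0697 in C6FAE. The test on absolute deviations called more spread in 1600 genes at 50 CPM, in 5294 with edgeR's expression filter alone and in 2466 to 4452 with 1 library left out. It called 0 in either direction with MEF alone, with C6FAE alone or around the median; the cause was not tested. Less spread, 13 genes as reported, was called in 23 at 1 CPM, 0 at 50 CPM, 136 with edgeR's filter, 1 without limma's trend, 2 by both tests and 10 to 51 with 1 library left out. With the replicate number as a block, more spread was called in 2520 genes and less in 4. Deviations of same-numbered libraries had correlations over genes of -0.051 to 0.030. The deviations in the reference groups lay close to counting error, so these correlations cannot decide whether the numbers pair libraries. Of 2448 alternative values of the ranges of 306 genes, 214 moved, 211 of them to a lower range. A range of highest over lowest has no direction, so a reversal was not possible. With 10.83 M to 11.41 M counts a library, 1 count is 0.0856 to 0.0957 CPM, so ranges of genes near or under 1 CPM in a library are imprecise.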

Other observations

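Genes of bile ducts and liver progenitors followed no single order. Of 9 at 10 CPM or more, 6 had a 4-fold range (6.92% of all genes), and 2 had it without replicate 4 (1.96%). Replicate 4 was the lowest library for 6 of the 9 (34.4% of all genes). Krt7, a keratin of ducts, stood at 2073, 3786, 2481 and 1005 CPM, highest in replicate 2 and lowest in replicate 4. Prom1, a membrane protein of progenitor cells, had the same highest and lowest library, at 142 and 27.9 CPM. Spp1, which had the widest range of the list (65.9-fold), and Sox9, a transcription factor of ducts, were instead highest in replicate 4, at 586.3 and 31.9 CPM.

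Of 11 hypoxia and glycolysis genes, 7 were highest in replicate 2 (21.0% of all genes) and 7 lowest in replicate 4 (34.4%). Car9, a carbonic anhydrase induced in low oxygen, was the one with a 4-fold range, at 37.2, 19.2, 16.9 and 6.25 CPM. Ldha and Eno1, enzymes of glycolysis, were instead highest in replicate 4, at 1664 and 983 CPM, and varied by 1.53-fold and 1.55-fold. Hp (haptoglobin), a plasma protein of the acute phase, had the highest and lowest library of the fibrinogens, at 308, 50.7, 146 and 163 CPM.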
